A study of Mus musculus with 17 samples.

Results

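The genes of mitosis and chromosome segregation were followed in macrophages of a mouse mammary tumor and in myeloid cells of the bone marrow. Members were chosen by symbol: the Cenp, Cdca and Anapc genes, the condensin Ncap genes with Smc2 and Smc4, 9 mitotic kinesins, cyclins A2, B1 and B2, the Cdc25 phosphatases and Cdc20, Aurka and Aurkb, the Bub genes, and Mki67, Plk1, Top2a, Birc5, Ndc80, Nuf2, Ttk, Tpx2, Prc1, Ube2c and Mad2l1. The symbols matched 71 of the 10207 rows with a gene name. Cdk1, also in the rule, was not analysed here. In mm10 with GENCODE vM21, all 71 are annotated as protein-coding genes.

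RNA came from 11 libraries of cells sorted from female BALB/c mice. Tumor-associated macrophages (TAM, n = 3) were sorted as CD11b+ Gr1- F4/80+ cells from tumors of 4T1-luc cells, a luciferase-bearing mouse mammary carcinoma line placed in the mammary fat pad (100000 cells per mouse) and taken at a size of 1 cm. Marrow cells of tumor-bearing mice (BMDM_T, n = 4) and of untreated mice (BMDM_H, n = 4) were sorted from tibia and femur as CD11b+ Gr1+ F4/80low cells, and the labels call them bone marrow-derived monocytes. The labelled mouse age is 8 weeks for TAM and BMDM_T and 12 weeks for BMDM_H, so tumor and labelled age cannot be told apart between the marrow groups. The sources disagree here, since the series' design text speaks of healthy mice of matched age. Tumors were digested with collagenase while marrow was flushed, so tissue, sort gate and preparation cannot be told apart between TAM and marrow.

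Cells enter mitosis when Cdk1 is bound by cyclins A and B and freed of inhibitory phosphates by Cdc25 phosphatases. Condensins then compact the chromosomes, kinesins build the spindle, kinetochores assembled on centromeres attach to it, and a checkpoint holds the cell until every chromosome is attached. Cdc20 then activates the anaphase-promoting complex, a ubiquitin ligase that destroys cyclin B and securin. Many of these genes are transcribed mainly in late S, G2 and M phase, so that their summed RNA is widely read as a measure of dividing cells. In the myeloid line, dividing precursors sit in the marrow, while mature neutrophils have left the cycle and tissue macrophages divide to a variable extent.

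Total counts ran from 1748338 to 3747929 in TAM, from 931278 to 1218977 in BMDM_T and from 387940 to 1286844 in BMDM_H, where replicates 3 and 4 were the shallowest. The 71 genes took 4228 to 9305 of these counts in TAM, 4818 to 6894 in BMDM_T and 1776 to 7555 in BMDM_H. Levels below are in CPM, a gene's counts relative to the library's total over all named genes, scaled with TMM factors. The macrophage markers C1qa, C1qb, C1qc, Apoe, Adgre1 and Mrc1 summed to 57516 to 71423 CPM in TAM, against 1783 to 2304 in BMDM_T and 2481 to 3399 in BMDM_H. In both marrow groups, 8 markers of late neutrophils (Ltf, Ngp, Camp, S100a8, S100a9, Cxcr2, Mmp8 and Retnlg) reached 154653 to 186446 and 129580 to 201247 CPM, while the 4 monocyte markers Ccr2, Ly6c2, Csf1r and F13a1 summed to 1239 to 1838 and 1858 to 3376. The marrow libraries thus carried granulocyte RNA beside the labelled monocytes. All of these are bulk libraries, in which fewer dividing cells and less RNA of these genes per cell cannot be told apart.

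Summed over all 71 genes, the level was 2349, 2510 and 2406 CPM in the 3 TAM libraries. BMDM_T replicates 1 to 4 stood at 5188, 5794, 6106 and 5967 CPM, and BMDM_H replicates 1 to 4 at 6013, 5873, 6135 and 4622. Every TAM library lay below every marrow library, and the marrow groups overlapped. The means were 2422 ± 81.5 (SD, n = 3), 5764 ± 405 (SD, n = 4) and 5661 ± 701 (SD, n = 4), so that BMDM_T was 2.38 times and BMDM_H 2.34 times the TAM level. No test was made on the sums.

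**Figure D1:**
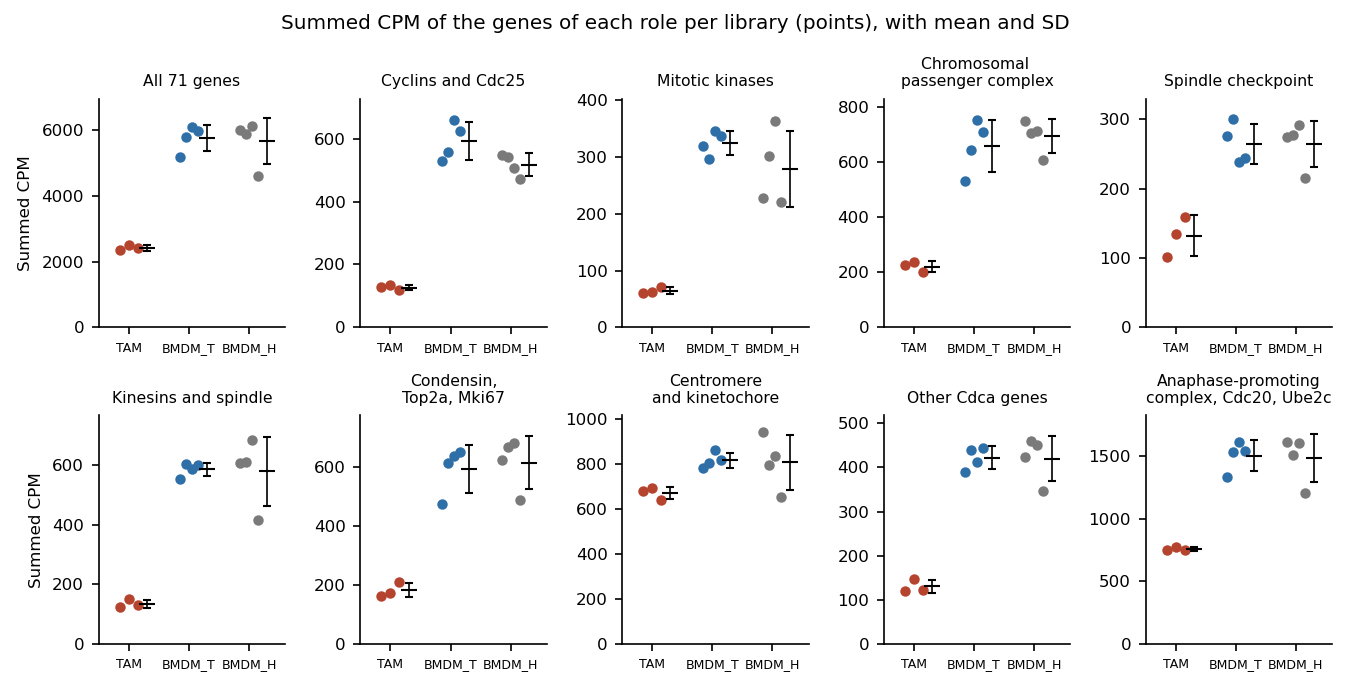
Summed CPM (y axis, from 0) of all 71 genes and of each of the 9 role groups in every library, with TAM in red, BMDM_T in blue and BMDM_H in grey; bars give mean and SD. TAM sums lie below all marrow sums in each panel except centromere and kinetochore, where BMDM_H replicate 4 (651) falls among the TAM values of 640 to 694.

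The roles did not share 1 size of difference, as the plot of summed levels by role shows. The 3 mitotic kinases had the largest ratio, 5.01, from 64.8 ± 6.24 CPM in TAM (SD, n = 3) to 325 ± 21.6 in BMDM_T (SD, n = 4). The 6 cyclin and Cdc25 genes summed to 127 ± 7.37 CPM in TAM (SD, n = 3) and 592 ± 59.8 in BMDM_T (SD, n = 4), a ratio of 4.67. For the 11 kinesins and spindle proteins the sums were 135 ± 12.9 and 586 ± 23.2, a ratio of 4.34. At the other end were the 18 centromere and kinetochore genes, at 670 ± 28.0 against 815 ± 32.2 (ratio 1.22). The anaphase-promoting complex group, drawn with Cdc20 and Ube2c, summed to 759 ± 13.9 against 1506 ± 122 (ratio 1.98). Its 8 Anapc subunits alone, which have no panel, stood at 634 ± 1.19 against 703 ± 10.4 (ratio 1.11). Most of the centromere sum came from Cenpa (mean 219 CPM in TAM, 331 in BMDM_T) and Cenpb (311 and 190). Gene by gene, the median log2 difference from BMDM_T was -1.40 for the 13 tested centromere and kinetochore genes and -0.31 for the 7 tested Anapc subunits. The Anapc subunits summed to 635, 634 and 632 CPM in the TAM libraries, below the 688 to 710 of BMDM_T and the 664 to 717 of BMDM_H by a small margin.

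TAM against BMDM_T compares macrophages of the tumor with marrow cells of mice that also carry a tumor. Of the 71 genes, 61 passed the filter on low counts and were tested with edgeR's quasi-likelihood test over 7518 genes. Lower RNA in TAM was called for 49 (80.3%; 28.7% of all tested genes were called lower) and higher RNA for 1, Cenpb (30.1% of all tested genes were called higher, and 58.9% in either direction). With library totals in place of TMM the background was 24.6% lower and 34.9% higher, 59.5% in all, while 46 members were lower and 2 higher. The median log2 difference of the 61 was -1.62, against 0.03 over all tested genes, with a range from -3.01 for Cdc25a to 0.71 for Cenpb. Among the genes called lower, more than 2-fold lower levels were fitted for 46 and more than 4-fold lower levels for 22. Over all 7518 tested genes the same counts were 1481 and 661.

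The filter bears on these counts. Of the 61 tested genes, 21 had at least 1 TAM library under its cutoff of 8.6 CPM and so passed through their marrow level. Among the other 40, which reached the cutoff in all 3 TAM libraries, 29 were called lower (72.5%) and 1 higher, where 22.5% of the 6035 tested genes chosen in the same way were called lower. Over all 71 rows, tested or not, 51 had every TAM library below every BMDM_T library (23.2% of all rows did) and 4 had every TAM library above (28.2%).

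**Figure D2:**
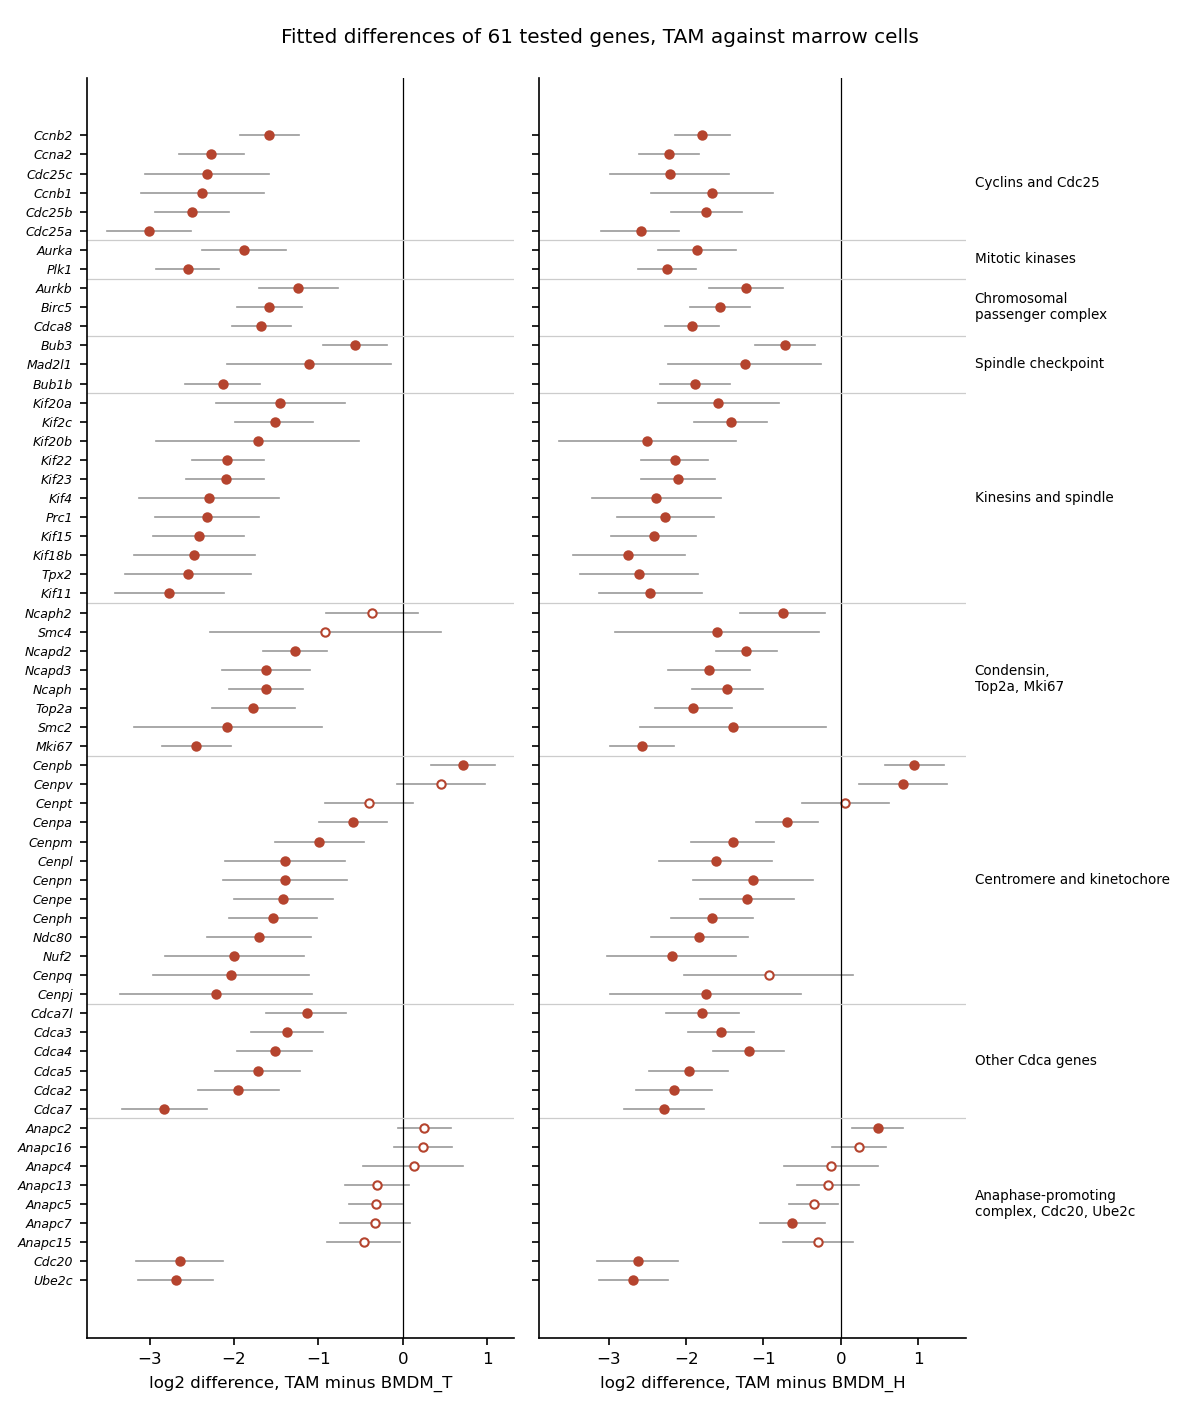
Fitted log2 difference (x axes) of the 61 tested genes, TAM minus BMDM_T on the left and TAM minus BMDM_H on the right, grouped by role; lines are 95% intervals, filled points were called at an adjusted p under 0.05 and open points were not. Cyclins, kinases, kinesins, Cdc20 and Ube2c lie to the left of 0 in both panels, the Anapc subunits near 0, and Cenpb to the right.

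TAM against BMDM_H sets the same 3 TAM libraries against marrow of untreated mice, so the TAM side is shared and the 2 comparisons are not independent. Here 51 of the 61 genes were called lower (83.6%; 28.3% of all tested genes) and 3 higher, Cenpb, Cenpv and Anapc2 (28.0% of all tested genes, and 56.3% in either direction). With library totals the background was 26.8% lower and 29.1% higher, 55.9% in all, while 50 members were lower and 3 higher. The median log2 difference was -1.67, against 0.02 over all tested genes. Of the 40 genes at the cutoff in all TAM libraries, 31 were called lower (77.5%, against 21.4% of the genes chosen in the same way). Without overlap between the libraries, 47 of all 71 rows were lower (21.9% of all rows) and 3 higher (24.7%).

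Promoter letters are shown next, because many genes that peak in mitosis carry a cell cycle homology region, an element through which the DREAM and B-Myb complexes act, often beside CCAAT boxes bound by NF-Y. RefSeq promoter windows on GRCm38.p6, from 250 bases before to 50 after the start, were at hand for 64 of the 71 genes. The 7 others are Aurkb, Ccna2, Cdc25c, Cdca2, Kif20a, Smc4 and Tpx2. The 120 bases before the start are printed for 4 genes called lower in TAM and for 2 that were not. They lie at chr11:99024190-99024309 (minus strand, Top2a), chr19:37376262-37376381 (plus, Kif11), chr9:70421555-70421674 (minus, Ccnb2), chr7:135716380-135716499 (minus, Mki67), chr10:60003136-60003255 (minus, Anapc16) and chr2:131180068-131180187 (minus, Cenpb). None of the 6 stretches overlaps an exon of GENCODE vM21. The 6 genes were picked by hand as examples among members free of such overlap, and do not stand for their groups. The shares of genes that hold the letters follow below. Capitals mark TTTGAA, the core of the cell cycle homology region, and CCAAT, or their reverse complements TTCAAA and ATTGG; the form TTTAAA was searched as well.
Top2a: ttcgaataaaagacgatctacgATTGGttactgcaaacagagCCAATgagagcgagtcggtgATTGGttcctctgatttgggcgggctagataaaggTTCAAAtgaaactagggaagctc
Kif11: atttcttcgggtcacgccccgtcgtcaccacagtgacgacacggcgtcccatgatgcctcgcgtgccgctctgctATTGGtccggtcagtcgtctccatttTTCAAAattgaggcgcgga
Ccnb2: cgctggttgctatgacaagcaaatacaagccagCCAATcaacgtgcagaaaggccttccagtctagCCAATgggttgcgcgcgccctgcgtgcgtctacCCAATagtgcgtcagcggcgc
Mki67: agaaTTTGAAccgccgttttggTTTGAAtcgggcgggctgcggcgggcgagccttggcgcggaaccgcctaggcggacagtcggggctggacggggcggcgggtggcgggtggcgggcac
Anapc16: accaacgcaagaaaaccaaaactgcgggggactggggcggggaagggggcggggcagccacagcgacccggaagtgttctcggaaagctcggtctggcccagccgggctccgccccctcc
Cenpb: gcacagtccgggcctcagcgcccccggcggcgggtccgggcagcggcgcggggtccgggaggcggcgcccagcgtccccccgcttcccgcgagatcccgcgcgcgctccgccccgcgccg

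In Top2a the homology region begins 23 bases before the start, with CCAAT letters at 98, 78 and 58 bases. Kif11 shows the same pair of elements at 19 and 45 bases. Ccnb2 holds 3 CCAAT boxes spaced 33 bases apart, and TTTGAA lies outside the printed stretch, at 167 bases before and 4 after the start. Mki67 carries TTTGAA at 116 and 98 bases. The stretches of Anapc16 and Cenpb hold none of these letters, although Anapc16 has TTTGAA farther out, at 212 bases. A match of letters is a description, not a site or a cause.

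Counted on either strand of the whole window, TTTGAA was present in 29 of the 43 genes called lower in TAM than in BMDM_T that had a window (67.4%), in 2 of the 11 tested and not called lower (18.2%), and in 20.2% of all 27025 genes with a window. Among other tested mitosis genes outside the rule it was in 23 of 37 called lower (62.2%) and in 3 of 17 that were not (17.6%). CCAAT was in 31 of the 43 genes called lower (72.1%), 1 of the 11 not called lower (9.09%) and 41.1% of all genes. Among the 5851 tested genes with a window, TTTGAA was in 13.8% and CCAAT in 42.7%. Among the 1703 of these called lower, the shares were 17.4% and 44.2%. The 11 members not called lower include all 7 tested Anapc subunits, and the hits there lie in Anapc7 and Anapc16 (TTTGAA) and Anapc5 (CCAAT). The split by call in the module is thus largely one between Anapc subunits and other members. TTTGAA was in 25% of the 8 Anapc subunits and in 57.1% of the 56 other members with a window. Among the other mitosis genes CCAAT did not part the groups, at 64.9% of those lower and 64.7% of those not lower. The letters TTTAAA (20.9% of the genes called lower, 14.9% of all genes), GCGGGAA (11.6% and 5.29%) and TTGGCGC (20.9% and 2.85%), the last pair being E2F-type letters, were less common. Among tested genes with a window, TTTAAA was in 10.4%, GCGGGAA in 9.88% and TTGGCGC in 5.08%, so GCGGGAA in the genes called lower was near that background. In the 11 genes not called lower, TTTAAA was in 9.09%, TTGGCGC in 0 and GCGGGAA in 18.2%, more than in the genes called lower. By role, all 9 kinesin and spindle genes with a window held TTTGAA, as did 4 of the 18 centromere and kinetochore genes. The median log2 difference between TAM and BMDM_T was -1.72 for the 31 tested genes with TTTGAA and -1.14 for the 23 without it. Over all tested genes it was -0.21 for the 809 with the letters and 0.06 for the 5042 without.

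**Figure D3:**
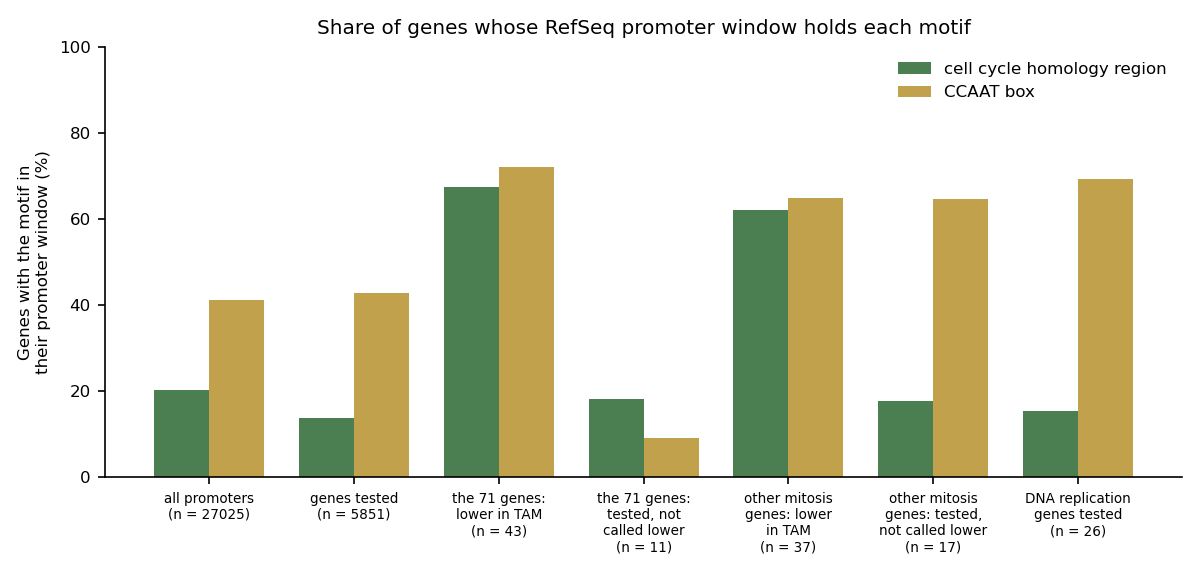
Percent of genes (y axis) whose RefSeq window of 300 bases holds the cell cycle homology region core (green) or a CCAAT box (yellow) on either strand, for all genes and for groups split by the TAM against BMDM_T call; n is the number of genes with a window. The core stands at 67.4% and 62.2% in the groups called lower and at 18.2% and 17.6% in those not called lower. The members tested and not called lower are mostly Anapc subunits.

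Cyclins and the Cdc25 phosphatases, the switch into mitosis, were called lower in TAM for all 6 genes and against both marrow groups, with median log2 differences of -2.35 (BMDM_T) and -2.0 (BMDM_H). Over all tested genes, 28.7% and 28.3% were called lower. Ccnb1 and Cdc25c lay under the filter's cutoff of 8.6 CPM in the TAM libraries and so passed it through their marrow level. Ccna2, which drives S phase and mitotic entry (chromosome 3, 36564865 to 36572150), stood at 22.8, 26.0 and 26.4 CPM in TAM, at 129, 130, 113 and 113 in BMDM_T and at 124, 141, 102 and 93.7 in BMDM_H. The TAM values lay far below both marrow groups, which overlapped. The log2 difference was -2.27 ± 0.18 (SE) against BMDM_T (edgeR adjusted p = 1.63e-09) and -2.22 ± 0.19 against BMDM_H (3.32e-09). Ccnb2, a B-type cyclin (chromosome 9, 70407692 to 70421547), read 58.3, 59.9 and 50.9 CPM in TAM, 144, 176, 182 and 168 in BMDM_T and 200, 203, 216 and 151 in BMDM_H. No TAM library reached a marrow one, and the log2 differences were -1.58 ± 0.17 (adjusted p = 9.55e-08) and -1.79 ± 0.17 (2.23e-08).

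Ccnb1, the main mitotic cyclin, was counted sparsely: 6.11, 6.90 and 4.65 CPM in TAM, 29.1, 25.2, 33.5 and 32.5 in BMDM_T and 24.7, 23.3, 5.58 and 10.4 in BMDM_H. TAM did not overlap BMDM_T (log2 -2.38 ± 0.35, adjusted p = 6.36e-06) but overlapped the shallow BMDM_H replicate 3 (log2 -1.67 ± 0.37, adjusted p = 0.000753). Cdc25a, a phosphatase that frees Cdk2 and Cdk1 (chromosome 9, 109875579 to 109893895), had the lowest fitted difference of the module. Its level was 17.2, 24.9 and 20.9 CPM in TAM, 120, 139, 217 and 207 in BMDM_T and 131, 112, 110 and 164 in BMDM_H. All marrow libraries were above all TAM libraries, and the log2 difference was -3.01 ± 0.24 against BMDM_T (adjusted p = 1.18e-09) and -2.59 ± 0.24 against BMDM_H (1.69e-08).

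**Figure D4:**
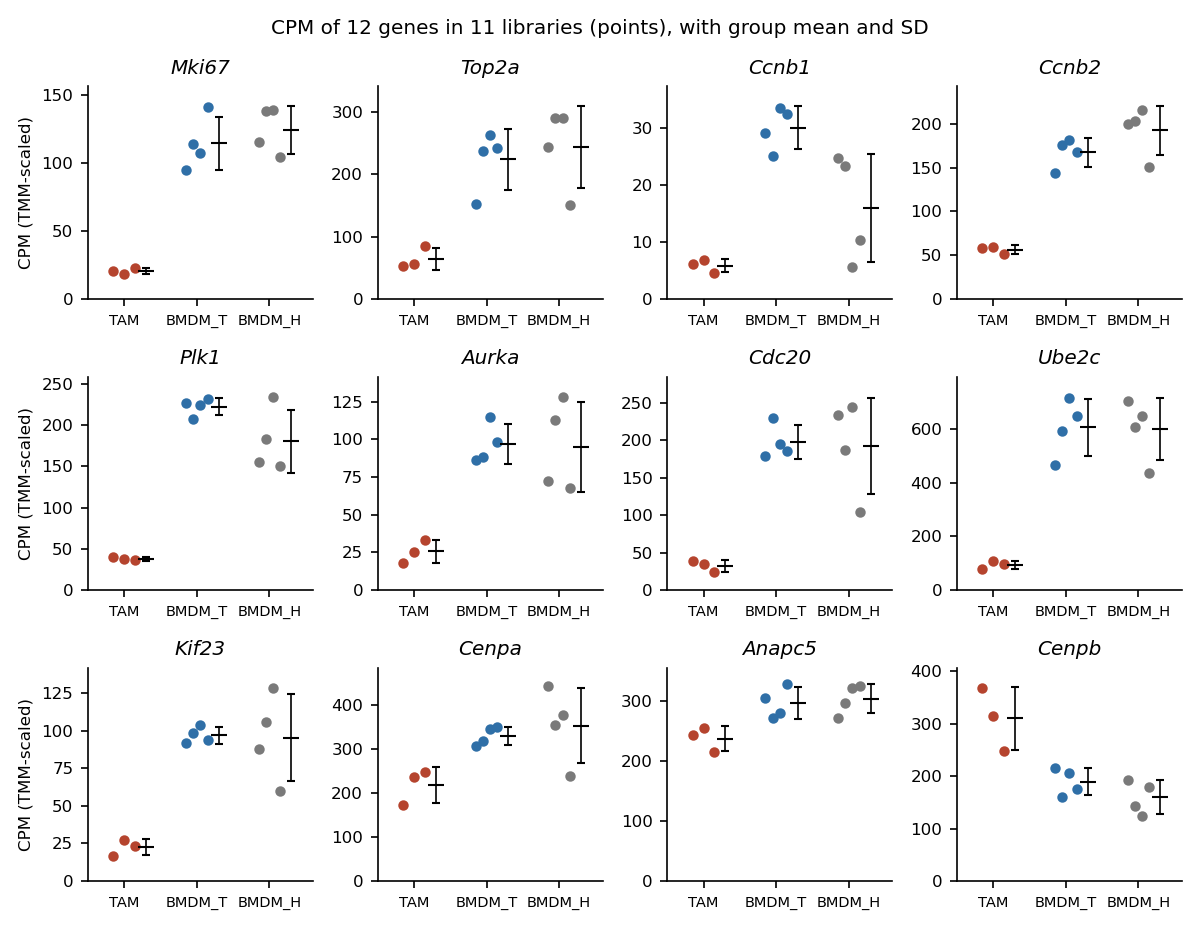
CPM (y axes, from 0) of 12 genes in each library, with TAM in red, BMDM_T in blue and BMDM_H in grey; bars give mean and SD. In 10 panels, from Mki67 to Cenpa, TAM means lie below marrow means; Anapc5 differs little, and the TAM values of Cenpb (249 to 369) lie above all marrow values.

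Plk1, the polo-like kinase of mitotic entry and spindle assembly (chromosome 7, 122159439 to 122169873), had 40.6, 37.1 and 36.2 CPM in TAM, 227, 208, 224 and 232 in BMDM_T and 155, 183, 234 and 151 in BMDM_H. The TAM libraries were tight and far below the others, with a log2 difference of -2.55 ± 0.18 against BMDM_T (adjusted p = 2.03e-10, the smallest of the module there) and -2.25 ± 0.18 against BMDM_H (1.86e-09). For Aurka, the centrosome kinase, means were 25.6 ± 7.38 CPM in TAM (SD, n = 3) and 97.0 ± 13.4 in BMDM_T (SD, n = 4), and it was called lower against both groups (log2 -1.88 and -1.86). Ttk, the third kinase of the list, was too sparse to be tested.

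The chromosomal passenger complex corrects faulty attachments and guides cytokinesis. Its members in the rule, Aurkb (kinase), Birc5 (survivin) and Cdca8 (borealin), were all called lower in TAM. Birc5 (chromosome 11, 117849251 to 117855743) read 119, 121 and 99.8 CPM in TAM, 249, 340, 398 and 371 in BMDM_T and 395, 314, 329 and 289 in BMDM_H. None of the TAM values came near the marrow range, and the log2 differences were -1.59 ± 0.18 (adjusted p = 3.39e-07) and -1.56 ± 0.19 (5.39e-07). Cdca8 stood at 78.5 ± 12.2 CPM in TAM (SD, n = 3), 251 ± 22.3 in BMDM_T and 297 ± 30.3 in BMDM_H (SD, n = 4 each). Cdca8 and Aurkb differed from BMDM_T by -1.68 ± 0.17 and -1.24 ± 0.22 on the log2 scale.

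In the spindle checkpoint the sizes differed within the group. Bub1b (BubR1), part of the complex that inhibits Cdc20, had 19.4, 26.5 and 19.9 CPM in TAM, 122, 91.6, 73.9 and 96.5 in BMDM_T and 89.1, 85.3, 83.7 and 57.3 in BMDM_H. TAM lay below both without overlap (log2 -2.13 ± 0.21, adjusted p = 3.81e-08, and -1.89 ± 0.22, adjusted p = 3.60e-07). Bub3, the partner that brings Bub1 and BubR1 to kinetochores, differed less: 77.2, 101 and 122 CPM in TAM against 143, 190, 136 and 129 in BMDM_T (log2 -0.57 ± 0.18, adjusted p = 0.0115) and 165, 167, 190 and 141 in BMDM_H (-0.72 ± 0.19, adjusted p = 0.00273). The Bub3 call against BMDM_T was lost without TAM replicate 1 (-0.43, adjusted p = 0.0669), without BMDM_T replicate 2 (-0.44, 0.0503) and with library totals in place of TMM (-0.42, 0.0625). Mad2l1 (Mad2), the checkpoint protein that holds Cdc20, stood at 1.11, 4.77 and 15 CPM in TAM, 10.8, 17.6, 24.2 and 17.1 in BMDM_T and 19.1, 23.3, 14.9 and 15.6 in BMDM_H. TAM replicate 3 overlapped both marrow groups. Its calls, at log2 -1.11 ± 0.46 (adjusted p = 0.0441) and -1.24 ± 0.47 (0.0299), were the weakest of the group. The first was lost without TAM replicate 1 (-0.71, adjusted p = 0.129) or 2 (-0.92, 0.126) and without BMDM_T replicate 2 (-1.11, 0.0718), 3 (-0.96, 0.115) or 4 (-1.14, 0.0660). The second was lost without TAM replicate 1 (-0.83, 0.0853) or 2 (-1.04, 0.0928) and without BMDM_H replicate 1 (-1.26, 0.0575) or 2 (-1.11, 0.0985).

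Kinesins and spindle proteins were called lower in TAM for all 11 tested genes and against both marrow groups, with medians of -2.30 and -2.39. The shares of all tested genes called lower were 28.7% and 28.3%. Of the 11, Kif22, Kif23 and Kif2c reached the filter's cutoff in all TAM libraries, and the others, which are sparse in TAM, passed it through their marrow level. Kif11 (Eg5), the motor that pushes the spindle poles apart, had 2.78, 12.2 and 8.79 CPM in TAM, 65.7, 40.3, 63.5 and 54.1 in BMDM_T and 45.4, 52.3, 37.2 and 41.6 in BMDM_H. TAM was lower without overlap, by a log2 difference of -2.77 ± 0.31 (adjusted p = 1.85e-07) and -2.47 ± 0.32 (1.58e-06). Kif23 (MKLP1), of the central spindle, read 16.7, 27.1 and 23.3 CPM in TAM, 91.5, 98.3, 104 and 93.8 in BMDM_T and 87.5, 106, 128 and 59.9 in BMDM_H. Again no library of TAM reached the marrow range, and the log2 difference was -2.10 against both groups (adjusted p = 8.64e-08 and 1.28e-07). Tpx2, which activates Aurka on the spindle, and Prc1, which bundles the central spindle, differed from BMDM_T by -2.55 ± 0.36 and -2.32 ± 0.30. The difference closest to 0 among the 11 was that of Kif20a (MKLP2), at -1.45 ± 0.37. Kif20b, a sparse member of the same family, was called in the full data and missed the threshold against BMDM_T without BMDM_T replicate 2 (-1.50, adjusted p = 0.0512).

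Among condensins and other chromosome proteins, 6 of the 8 tested genes were called lower against BMDM_T and all 8 against BMDM_H. The shares of all tested genes called lower were 28.7% and 28.3%. Some of the 8, with Smc2 and Smc4 among them, had at least 1 TAM library under the filter's cutoff and passed it through their marrow level. Mki67, the coat protein of mitotic chromosomes whose antigen Ki-67 marks cycling cells (chromosome 7, 135689784 to 135716361), had 20.6, 18.6 and 23 CPM in TAM, 94.7, 114, 107 and 141 in BMDM_T and 115, 138, 139 and 104 in BMDM_H. The TAM libraries lay together and well below the others, by log2 -2.45 ± 0.19 (adjusted p = 1.22e-09) and -2.57 ± 0.20 (8.65e-10). Top2a, the topoisomerase that untangles sister chromatids (chromosome 11, 98992943 to 99024189), read 53.3, 56.2 and 84.8 CPM in TAM, 153, 237, 263 and 243 in BMDM_T and 244, 290, 290 and 151 in BMDM_H. TAM replicate 3 was the highest of its group yet below all marrow libraries, and the log2 differences were -1.77 ± 0.24 (adjusted p = 2.12e-06) and -1.91 ± 0.24 (1.00e-06).

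Of the condensin I subunits, Ncapd2 and Ncaph differed from BMDM_T by -1.28 ± 0.18 and -1.62 ± 0.21. The condensin II subunit Ncaph2 did not pass against BMDM_T (-0.37 ± 0.26, adjusted p = 0.234) and passed against BMDM_H (-0.75 ± 0.26, adjusted p = 0.0201). That call was lost without BMDM_H replicate 1 (-0.71, 0.0570) or 3 (-0.64, 0.0583) and without TAM replicate 3 (-0.55, 0.113). Smc2 and Smc4, the ATPase subunits of both condensins, were sparse. Smc2 read 4.44, 9.55 and 2.59 CPM in TAM, 24.8, 30.3, 6.93 and 23.5 in BMDM_T and 21.5, 15.3, 7.44 and 0 in BMDM_H, so that single libraries of both marrow groups reached into the TAM range. It was called lower against BMDM_T (-2.08 ± 0.53, adjusted p = 0.00214) and against BMDM_H (-1.39 ± 0.58, adjusted p = 0.0437), the latter lost without BMDM_H replicate 1 (-0.95, 0.242) or 2 (-1.32, 0.101), TAM replicate 1 (-1.32, 0.0878) or 3 (-0.94, 0.187) and BMDM_T replicate 4 (-1.40, 0.0504). For Smc4 the levels were 2.22, 0.53 and 4.40 CPM in TAM, 3.23, 3.36, 12.7 and 2.71 in BMDM_T and 5.57, 5.63, 11.2 and 18.2 in BMDM_H, with TAM below BMDM_H and overlapping BMDM_T. It did not pass against BMDM_T (-0.92 ± 0.66, adjusted p = 0.228) and passed against BMDM_H (-1.60 ± 0.63, adjusted p = 0.0343), but not without TAM replicate 1 (-1.52, 0.0725) or 2 (-1.24, 0.107).

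Centromere and kinetochore genes were split. Of 13 tested, 10 were called lower and 1 higher against BMDM_T, and 9 lower and 2 higher against BMDM_H. Over all tested genes, 28.7% were lower and 30.1% higher against BMDM_T, and 28.3% and 28.0% against BMDM_H. Cenpn, lower against BMDM_H, was no longer called there without BMDM_H replicate 2 (-0.76, adjusted p = 0.130). Most genes called lower against BMDM_T, among them Ndc80, Nuf2, Cenpj, Cenpn and Cenpq, had at least 1 TAM library under the filter's cutoff of 8.6 CPM. They passed the filter through their marrow level. Ndc80 and Nuf2, which form the microtubule-binding rod of the outer kinetochore, were lower by -1.71 ± 0.30 and -2.0 ± 0.39 than in BMDM_T. Cenpj (CPAP), which acts at centrioles, differed by -2.21 ± 0.54 from BMDM_T and by -1.74 ± 0.59 from BMDM_H, where the call was lost without BMDM_H replicate 1 (-1.11, adjusted p = 0.179) or TAM replicate 3 (-1.43, 0.0744). Cenpa, the histone H3 variant that marks centromeres (chromosome 5, 30666777 to 30674830), kept a larger share of its marrow level: 173, 236 and 249 CPM in TAM, 308, 318, 346 and 351 in BMDM_T and 444, 355, 378 and 239 in BMDM_H. TAM lay below BMDM_T without overlap and overlapped BMDM_H replicate 4. The log2 differences were -0.59 ± 0.19 (adjusted p = 0.0117) and -0.70 ± 0.19 (0.00406), the first being lost without TAM replicate 1 (-0.46, adjusted p = 0.0674) and with library totals (-0.44, 0.0562).

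Cenpb, the protein that binds a short box in centromeric satellite DNA, was the 1 member called higher in TAM against both groups. It lies on chromosome 2 (131175182 to 131180067) and read 369, 315 and 249 CPM in TAM, 216, 160, 207 and 176 in BMDM_T and 193, 143, 125 and 180 in BMDM_H. Each TAM library was above each marrow library, and the log2 difference was 0.71 ± 0.18 (adjusted p = 0.00207) and 0.95 ± 0.18 (0.000197). The last 1000 bases of its last exon overlap Spef1 on the same strand, so reads of the 2 genes could be mixed. Cenpv, described at centromeres and on microtubules, had 20.0, 23.9 and 20.4 CPM in TAM, 12.9, 16.0, 16.2 and 17.1 in BMDM_T and 12.7, 12.9, 7.44 and 15.6 in BMDM_H. It did not overlap either marrow group but was called against BMDM_H only (0.80 ± 0.27, adjusted p = 0.0162; 0.45 ± 0.25, adjusted p = 0.128, against BMDM_T), and not without BMDM_H replicate 3 (0.66, 0.0533) or TAM replicate 2 (0.72, 0.0578).

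The remaining Cdca genes are named for cell division cycle-associated expression. Beside 28.7% and 28.3% of all tested genes, all 6 members were called lower against both groups (medians -1.62 and -1.88). Cdca7, a target of Myc and E2F factors needed for DNA methylation maintenance, had the largest difference of them, at 12.2, 16.4 and 9.57 CPM in TAM, 75.4, 100, 76.2 and 100 in BMDM_T and 49.3, 73.2, 70.7 and 46.8 in BMDM_H. TAM was lower without overlap (log2 -2.83 ± 0.24, adjusted p = 3.59e-09, and -2.29 ± 0.25, adjusted p = 1.58e-07). Its relative Cdca7l was nearest to 0 against BMDM_T, at -1.14 ± 0.23 (adjusted p = 0.000218).

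The anaphase-promoting complex set its activator and its ubiquitin-conjugating enzyme apart from its subunits. Cdc20, the mitotic activator (chromosome 4, 118432901 to 118437352), had 38.9, 34.5 and 23.5 CPM in TAM, 179, 230, 195 and 186 in BMDM_T and 234, 187, 245 and 104 in BMDM_H. No overlap was seen, and the log2 difference was -2.64 ± 0.25 (adjusted p = 1.41e-08) and -2.63 ± 0.25 (2.11e-08). Ube2c (UbcH10), the enzyme that starts ubiquitin chains for the complex (chromosome 2, 164769898 to 164778822), read 77.2, 107 and 96.4 CPM in TAM, 465, 594, 717 and 647 in BMDM_T and 706, 607, 649 and 437 in BMDM_H. It too was lower in all TAM libraries, by -2.69 ± 0.21 against both groups (adjusted p = 1.08e-09 and 1.41e-09).

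Of the 7 tested Anapc subunits, by contrast, 0 were called by edgeR against BMDM_T, where 2 had an unadjusted p under 0.05, and their median was -0.31 (range -0.46 to 0.25). Other settings added Anapc15 or Anapc5 as lower and, with library totals, Anapc2 as higher (0.40, adjusted p = 0.0300). Against BMDM_H, Anapc2, the cullin subunit of the catalytic core, was called higher (0.48 ± 0.16, adjusted p = 0.0135), and Anapc7 lower (-0.63 ± 0.20, adjusted p = 0.0127), though not without TAM replicate 3 (-0.47, adjusted p = 0.0790). Anapc2 (chromosome 2, 25272478 to 25285915) had 111, 111 and 126 CPM in TAM, 102, 101, 106 and 82.1 in BMDM_T and 86.0, 84.5, 85.5 and 75.5 in BMDM_H. TAM was above every marrow library, and the call was lost without TAM replicate 3 (0.41, adjusted p = 0.0579). A missed threshold does not show that subunit levels were equal: for Anapc2 the 95% interval of the difference from BMDM_T ran from -0.06 to 0.57.

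BMDM_T against BMDM_H asks whether the tumor goes with a change in the marrow cells. Of the 61 tested genes, 1 was called higher (1.64%; 2.82% of all tested genes were called higher) and 0 lower (2.00% of all tested genes, and 4.82% in either direction). With library totals, 0 members were higher and 1 lower, against 2.06% and 2.90% of all genes, 4.96% in all. At an unadjusted p under 0.05 there were 6 of the 61, where 1324 of all 7518 tested genes were, so the members did not exceed the background. The median log2 difference was 0.00, against -0.01 over all tested genes, and the range ran from -0.78 to 1.10. Without overlap between the groups, 3 of all 71 rows were higher in BMDM_T (5.04% of all rows), namely Ccnb1, Cdc25b and Cdca7, and 1 was lower (4.68%), Cdca7l. Both counts are near the background. Standard errors of the 61 differences ran from 0.14 to 0.62 with a median of 0.21.

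**Figure D5:**
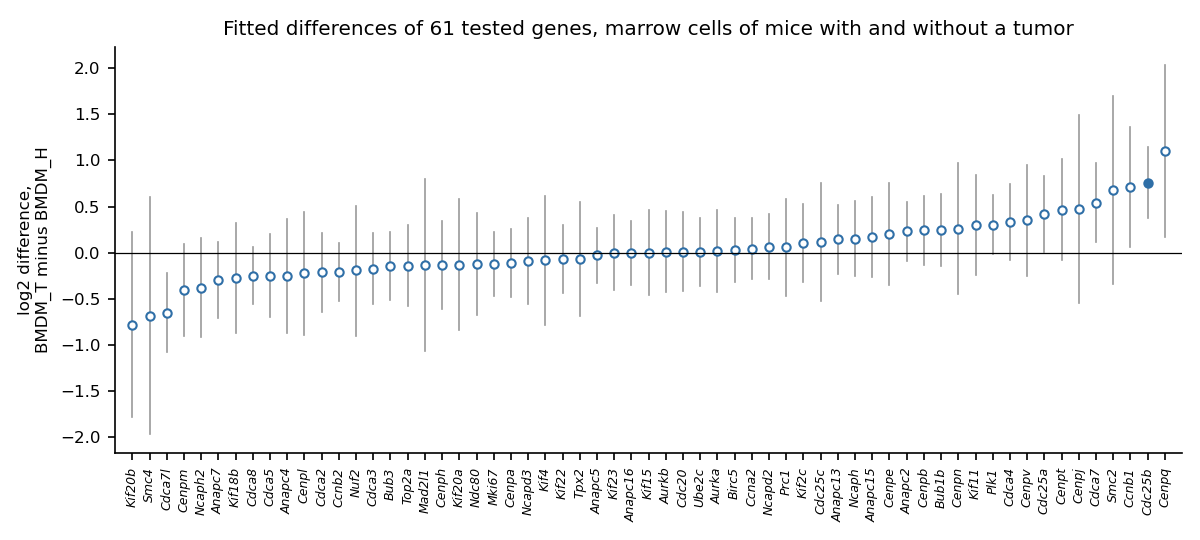
Fitted log2 difference, BMDM_T minus BMDM_H (y axis), of the 61 tested genes in order of size; lines are 95% intervals, and the filled point, Cdc25b (0.76), is the 1 gene called at an adjusted p under 0.05. The points lie between -0.78 and 1.10 around a median of 0.00.

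Cdc25b, the phosphatase that starts Cdk1 activation at the centrosome, lies on chromosome 2 (131186949 to 131198497). It had 88.3, 70.6, 98.1 and 85.7 CPM in BMDM_T and 48.5, 49.9, 61.4 and 41.6 in BMDM_H, without overlap, and 18.9, 13.8 and 13.2 in TAM. The log2 difference between the marrow groups was 0.76 ± 0.19 (adjusted p = 0.0204). It kept its direction in every alternative but missed the threshold without BMDM_H replicate 1 (0.74, adjusted p = 0.0630), 2 (0.76, 0.0680) or 4 (0.71, 0.0521), without BMDM_T replicate 3 (0.69, 0.0640) and with library totals (0.65, 0.0520). Cdca7l, at 33.4, 27.7, 45.0 and 37.9 CPM in BMDM_T and 58.1, 61.9, 46.5 and 54.6 in BMDM_H, had a difference of -0.65 ± 0.21 that did not pass (adjusted p = 0.0792) and passed with library totals (-0.76, adjusted p = 0.0457). The 95% interval of the marrow difference excluded 0 for 6 of the 61 genes, of which all but Cdc25b missed the adjusted threshold. That share is below the background, since 1324 of all 7518 tested genes had an unadjusted p under 0.05. The 6 are listed as a description. They were Cdc25b (0.37 to 1.15), Ccnb1 (0.71, 0.06 to 1.36), Cdc25a (0.42, 0.01 to 0.83), Cdca7 (0.54, 0.11 to 0.97), Cenpq (a kinetochore gene, 1.10, 0.17 to 2.03) and, lower in BMDM_T, Cdca7l (-0.65, -1.08 to -0.22). The interval included 0 for 5 genes in wide use as signs of proliferation: Mki67 -0.12 (-0.47 to 0.22), Top2a -0.14 (-0.58 to 0.30), Plk1 0.30 (-0.02 to 0.62), Ube2c 0.01 (-0.36 to 0.38) and Cdc20 0.01 (-0.42 to 0.44).

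BMDM_H replicate 4, the shallowest library, held the lowest level of its group in 34 of the 61 genes, BMDM_T replicate 1 in 27 and TAM replicate 1 in 28. The early granulocyte markers Elane, Mpo, Prtn3 and Ctsg, genes of dividing promyelocytes, summed to 8383, 6439, 9285 and 8800 CPM in BMDM_T and to 2155, 2133, 2524 and 1718 in BMDM_H, and all 4 were called higher in BMDM_T. The red cell precursor markers summed to 6.31 to 20.2 CPM in BMDM_T and 54.9 to 271 in BMDM_H. Genes of B cell precursors, which also divide in marrow, were called higher in BMDM_T: Vpreb1, a surrogate light chain gene, read 120, 209, 104 and 121 CPM there and 26.3, 29.0, 66.9 and 13.0 in BMDM_H (log2 2.07 ± 0.30, edgeR adjusted p = 0.000209), and Vpreb3 and Igll1 differed by 1.29 ± 0.23 and 1.86 ± 0.34. Dividing cells of these lineages can carry the same mitotic genes, and their part in the marrow result was not tested.

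For the TAM comparisons the same lists read 26.1 to 32.9 CPM (early granulocytes), 301 to 520 (late neutrophils) and 11.1 to 15.8 (red cell precursors). In TAM, 4 of the 6 red cell markers with a row (Slc4a1, Alas2, Car1 and Kel) had 0 counts. The epithelial and tumor cell markers (7 of 8 with a row) summed to 66.7 to 103 CPM in TAM, 12.9 to 35.8 in BMDM_T and 20.7 to 62.5 in BMDM_H. Fibroblast markers (3 of 5 with a row) summed to 5.69 to 24.4 CPM in TAM, 0 to 13.5 in BMDM_T and 0 to 41.6 in BMDM_H. T and NK cell markers (2 of 6 with a row) summed to 0.556 to 1.1 CPM in TAM, 236 to 298 in BMDM_T and 187 to 303 in BMDM_H. Vpreb1 stood at 0.556, 1.1 and 0.776 CPM in TAM, where Vpreb3 and Igll1 had 0 counts. The part of each cell type in the level of the mitotic genes was not tested.

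Genes of the same processes outside the symbol rule were counted as well in TAM against BMDM_T, where 28.7% of all tested genes were called lower and 30.1% higher. Of 19 tested kinetochore genes, 15 were called lower and 1 higher (median -1.24). Spc24, the anchor of the Ndc80 complex, fell by 2.12 on the log2 scale, from 177 ± 11.3 CPM in BMDM_T (SD, n = 4) to 40.6 ± 1.83 in TAM (SD, n = 3), while Zwint was called higher (0.66 ± 0.24, adjusted p = 0.0209). In cohesin and separase, 5 of 9 were lower, among them Rad21 (-1.36 ± 0.20) and Pttg1, which encodes securin (-1.05 ± 0.17), and Espl1 (separase) was higher (0.54 ± 0.20, adjusted p = 0.0289). Spindle and midbody genes were lower in 22 of 28, the largest difference being that of Depdc1b (-4.41 ± 0.27). Of 18 tested genes of mitotic entry and exit, 10 were lower, such as Ccnf (-2.62 ± 0.23), and Mad2l2 was higher (1.07 ± 0.21). DNA replication genes were lower in 19 of 33 with a median of -0.63, and Fen1 was higher. In BMDM_T against BMDM_H, edgeR called 0 genes of these 5 lists. At an unadjusted p under 0.05 there were 2 spindle genes, 2 of entry and exit and 8 of DNA replication, beside 1324 of all 7518 tested genes.

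Strand use in counting is not given in the sources used here, and 13 members overlap another gene in the last 1000 bases of the last exon, where 3'-end reads fall. Among those named here these include Ccna2 (with Exosc9), Cdc20 (Elovl1), Cdca7l (Dnah11), Kif20a (Cdc23), Ncaph2 (Sco2 and Tymp), Prc1 (Rccd1) and Ube2c (Tnnc2), all on the opposite strand, besides Cenpb. Anapc15 (Tomt), Cenpp (Ippk), Cenpu (Primpol) and Ncapg (Lcorl), named as well, also overlap a gene on the opposite strand. The 10 members that were not tested (Anapc1, Bub1, Cenpc1, Cenpi, Cenpk, Cenpp, Cenpu, Ncapg, Ncapg2 and Ttk) had at most 28 counts in any library. For Bub1, the checkpoint kinase, the levels were 2.58 ± 0.399 CPM in TAM (SD, n = 3), 2.03 ± 1.91 in BMDM_T and 1.98 ± 1.44 in BMDM_H (SD, n = 4 each). The libraries of the groups overlapped, and at this depth a difference in Bub1 was not tested.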

How the data were processed

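RNA was measured in 3'-end mRNA libraries with unique molecular identifiers. The deposited values are raw counts per gene in 1 table. Per the submitters' processing notes, the tools named are bcl2fastq, STAR 2.4.2a and HTSeq, and the genome build is mm10. The gene filter, strand setting, annotation and any merging of identifiers are details not given in the sources used here. Symbols fill 10207 of 24421 rows, and the 14214 others hold 0 counts of these 11 libraries. The 6 libraries of batch 2 do not follow the symbols (Spearman correlation with batch 1 from -0.02 to 0.0 over 66 pairs, against 0.92 to 0.96 within BMDM_H), so their genes were not analysed here. In the symbols, 17 had become dates.

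The fit over all 11 libraries used edgeR 4.0.16 in R 4.3.3 (filterByExpr, TMM, glmQLFit, glmQLFTest). Adjusted p-values (Benjamini-Hochberg over 7518 genes) under 0.05 were called. Standard errors (SE) were taken as the fitted log2 difference over the root of its quasi-likelihood F statistic. Alternatives were library totals, DESeq2 1.42.0, limma 3.58.1 (voom), other filters, a replicate block and left-out libraries. On simulated data with 200 changed genes among 7518, recovery of 2-fold changes was 56% in the marrow comparison, 64% in TAM against BMDM_T and 54% in TAM against BMDM_H. At 4-fold it was 92%, 96% and 93%. The simulated levels were means over all 11 libraries. In the real TAM comparisons 58.9% (BMDM_T) and 56.3% (BMDM_H) of genes were called, so the simulated recovery need not hold there.

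Groups follow the sample labels. Replicates are not stated to be separate mice, so p-values reflect only how these samples differ among themselves, possibly for technical reasons; replicate pairs differed by more than sampling noise (chi-square per degree of freedom 2.67 to 14.62). BMDM_T and BMDM_H libraries of the same number deviated together (r = 0.22, 0.24, 0.13 and 0.13 across genes), which counts as pairing here, although the labels do not say what a number shares; the main fit has no block. For TAM and BMDM_T r was 0.02, -0.03 and 0.08. The summed level of 1 marker list is not reported here. The members, role groups, marker lists and pathway lists were chosen with earlier results of these data known. Named members are 27 cell cycle genes of general use that were tested, those called higher in TAM or called in marrow, and the largest and smallest difference of each role, 36 in all; Anapc5, Anapc7, Anapc15, Anapc16, Cenpn, Cenpq, Kif22, Kif2c, Kif20b, single marker genes, genes lacking a window, overlapping genes and untested genes were named after their values were seen. Of the other lists, up to 3 genes per direction with the smallest p were open to naming. Coordinates are those of GENCODE vM21.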

Additional observations from a re-analysis of the deposited data

Results flagged for a closer look

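Over the 36 named members, the 9 role sums and the sum of all members, 92 groups of 4 marrow libraries were examined for 1 library far from the others (its gap to the nearest library, divided by the range of the group, above Dixon's critical value), and 3 were found; chance gives about 1 in 20 groups. In BMDM_H replicate 4, the library with the fewest counts, Anapc2 stood at 75.5 CPM where the others had 84.5 to 86.0. The same library had 62.5 CPM of Ncaph, a condensin subunit, against 84.4 to 87.4. In BMDM_T replicate 3, Smc4, the condensin ATPase, read 12.7 CPM against 2.71 to 3.36.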

How the results depend on the processing

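No value changed sign while called under any alternative run. In BMDM_T against BMDM_H, the count of members called higher went from 1 to 0 with library totals and to 0 without BMDM_H replicates 3 and 4, and was 0 to 1 over left-out libraries; the count called lower was 1 with library totals, through Cdca7l, and 0 over all left-out libraries. In TAM against BMDM_T, left-out libraries gave 45 to 51 members lower and 1 higher, and library totals gave 2 higher. In TAM against BMDM_H they gave 47 to 51 lower and 2 to 3 higher, and 1 was higher without BMDM_H replicates 3 and 4. The summed level was 2552 CPM in TAM with library totals, and, with leave-one-out added after the data were seen, 2377 to 2458 in TAM, 5650 to 5956 in BMDM_T and 5503 to 6007 in BMDM_H. Library totals moved the median of all genes by -0.11, 0.15 and 0.04 in the 3 comparisons and turned the split of all calls in BMDM_T against BMDM_H from 212 higher and 150 lower to 155 and 218. The replicate block gave the same member counts (1 and 0, 1 and 49, 3 and 51, higher and lower) and changed no call of a member. Of the 36 named members, 11 crossed the threshold in at least 1 alternative, 47 times in all. Besides those given above without a library, Anapc2, Cenpv and Ncaph2 missed it against BMDM_H without BMDM_H replicates 3 and 4 (0.43, 0.72 and -0.67), Ncaph2 and Smc2 with DESeq2 (-0.73 and -1.18), Smc2 with limma-voom (-1.38) and library totals (-1.34), and Mad2l1 against BMDM_T with library totals (-0.97), with only the groups compared (-1.15) and without BMDM_H replicates 3 and 4 (-1.13); the Cdc25b call was lost without the latter as well (0.79). With no filter, 52 members were called in TAM against BMDM_T, Ncapg and Cenpu being added. Of 654 uncalled values of named members in the marrow comparison, 59 changed sign, so uncalled directions there are given as description only. Low counts limit Ccnb1, Cenpj, Mad2l1, Smc2, Smc4 and the untested members. With at least 20 counts in 3 libraries, sparse members such as Cenpj, Nuf2 and Tpx2 had no test.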

Other observations

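Regulators of the step before S phase were called in both directions. Of 17 tested G1 cyclins, kinases and inhibitors, 8 were called lower and 4 higher in TAM against BMDM_T, beside 28.7% and 30.1% of all tested genes. Cdkn1a (p21), an inhibitor of cyclin-dependent kinases, stood at 1302 ± 67.2 CPM in TAM (SD, n = 3), 49.1 ± 15 in BMDM_T and 87.0 ± 22.9 in BMDM_H (SD, n = 4 each), a log2 difference of 4.73 ± 0.23 from BMDM_T (edgeR adjusted p = 8.95e-13). Of the D-type cyclins, Ccnd1 was higher in TAM (184 ± 42.5 against 7.97 ± 3.45 CPM, log2 4.53 ± 0.32), as was Ccnd2 (2.22 ± 0.24), while Ccnd3 was lower (86.6 ± 23.2 against 2584 ± 470 CPM, log2 -4.91 ± 0.24). Cdkn2d (p19) and E2f2 were lower as well (-4.07 ± 0.20 and -3.99 ± 0.18). Between the marrow groups, Cdkn2d was higher in BMDM_T (0.70 ± 0.16, adjusted p = 0.0104) and Cdkn1a lower (-0.87 ± 0.22, adjusted p = 0.0258).

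In BMDM_T against BMDM_H, 27 of 33 DNA replication genes had a positive difference, with a median of 0.16 and 8 at an unadjusted p under 0.05, but edgeR called 0 of them at an adjusted p under 0.05. Over all 7518 tested genes 3620 were positive and 1324 had an unadjusted p under 0.05, and library totals shifted the median of all genes by -0.11. Cenpb and Cdc25b, called in opposite directions in TAM against both marrow groups, lie on chromosome 2 with 6881 bases between them.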
